A study of Mus musculus with 24 samples.

Results

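The knockout effect beyond tamoxifen was the part of the muscle's answer to tamoxifen that differed between mice with and without a muscle-fibre Cre recombinase, and it was computed from all 24 libraries of the study, 24 of 24. The groups were taken from the library titles and the genotype labels, as 8 groups of 3. For each sex, the tamoxifen response (the log2 difference of tamoxifen and vehicle) of animals without the transgene was subtracted from that of animals with it, and the combined contrast is the mean of the differences in females and in males. A negative value means that the response was lower with the transgene. A log2 value of 1 is a 2-fold difference.

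Total RNA of the gastrocnemius, the large calf muscle, was measured by RNA sequencing. All animals are labelled as carrying floxed alleles of both Numb and Numbl, written Numb(f/f)/NumbL(f/f). Animals of 4 groups also carried HSA-MCM, a tamoxifen-activated Cre recombinase (MerCreMer) driven by a promoter of human skeletal actin, a gene of muscle fibres and not of the other cells in the muscle. In each sex, animals with HSA-MCM received vehicle or tamoxifen, the latter being the conditional knockout, and animals without it received vehicle or tamoxifen. Ages, dose and time after tamoxifen are not given in these labels. The 6 male libraries without the transgene are titled WT although their genotype label gives the floxed alleles. The 3 male vehicle libraries with the transgene are vehicle controls by title and tamoxifen by their treatment field. They were taken as vehicle, so every male value and every combined value of the contrast rests on that reading. The labels do not say that each library is a separate animal, so a p-value here measures only the spread of these libraries.

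Numb and Numb-like are adaptor proteins of endocytosis that sort membrane receptors, and they are best known as regulators of Notch, the receptor whose cleaved inner part switches on genes of the Hes and Hey families. Cre cuts floxed DNA for good, whereas tamoxifen, a ligand of oestrogen receptors, can alter gene expression by itself. A response to tamoxifen that is the same with and without Cre cancels in the contrast, and only a response that differs between the genotypes remains.

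Library totals were 31219445 to 39142101 counts in transgene females, 36099031 to 43014516 in females without the transgene and 21516819 to 29982077 in males. Mitochondrial genes took 4.57% to 7.83% of counts in females and 7.31% to 11.4% in males. Pairs of libraries within a group differed by more than counting error, with chi-square values of 9.22 to 117 for each degree of freedom, so none counted as a duplicate. All 12 markers of muscle fibres, among them Acta1, Ckm and Myh4, passed the filter on low counts. With quality weights estimated from the data, the lightest library was the first male tamoxifen library with the transgene (0.389), followed by the third male vehicle library with it (0.393).

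Beyond the tamoxifen response shared by both genotypes, 2 of 16670 genes differed in the combined contrast, 0.012% of those tested. Both were lower with the transgene. They were Tspan8, which encodes a tetraspanin of the cell membrane, and Sgk1, the serum- and glucocorticoid-regulated kinase. No gene was higher. All adjusted p-values are from edgeR's quasi-likelihood test with Benjamini-Hochberg adjustment over all genes tested, with a threshold of 0.05, and values after ± are standard errors unless SD is given. At an unadjusted p under 0.05 there were 1335 genes, 8.01% of those tested. limma-voom called 2 genes and DESeq2 19 (8 higher and 11 lower), Tspan8 and Sgk1 among them in both cases. Leaving out 1 library gave 1 to 6 calls.

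The start regions of these genes are shown because they are the only genes called in the combined contrast. They come from RefSeq's table on GRCm38.p6 and cover 250 bases before to 50 bases after a listed start, read 5′ to 3′ on the gene's strand. Capitals mark matches, on either strand, to AGAACA (the half-site of the glucocorticoid receptor), AGGTCA (that of oestrogen receptors) or CACGTG (an E-box). Tspan8 has 1 listed start and Sgk1 has 6, and the one printed for Sgk1 was chosen after the search because it holds the full element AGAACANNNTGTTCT.
Tspan8, chr10:115817034-115817333, plus strand: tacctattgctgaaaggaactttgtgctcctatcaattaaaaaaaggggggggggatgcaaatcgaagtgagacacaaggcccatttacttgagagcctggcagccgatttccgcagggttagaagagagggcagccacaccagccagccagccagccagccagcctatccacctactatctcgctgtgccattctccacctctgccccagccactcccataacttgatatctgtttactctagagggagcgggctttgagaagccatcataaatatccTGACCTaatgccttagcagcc
Sgk1, chr10:21993640-21993939, plus strand: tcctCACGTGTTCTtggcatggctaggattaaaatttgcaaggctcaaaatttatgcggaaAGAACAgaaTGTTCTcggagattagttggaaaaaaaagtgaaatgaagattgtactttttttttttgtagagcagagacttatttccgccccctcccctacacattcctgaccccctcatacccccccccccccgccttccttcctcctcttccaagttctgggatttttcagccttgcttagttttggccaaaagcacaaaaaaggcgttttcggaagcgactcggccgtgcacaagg
The Tspan8 region held 1 match to AGGTCA and none to AGAACA or CACGTG. The printed Sgk1 region held 3 matches to AGAACA, of which 2 form the full element and 1 overlaps the single CACGTG. Of the other Sgk1 regions, none held the full element. Those starting at 21881934 and 21991973 held 1 match to AGAACA each. Those starting at 21978422 and 21985854 held 1 match to AGGTCA each, and that at 21994416 held no match. Among all 32851 start regions of the table, 19.0% held AGAACA, 16.3% held AGGTCA and 7.15% held CACGTG, while 3 regions held the full element. The printed Sgk1 region was chosen for that element, so nothing is read from its rarity. A match describes the letters and is no evidence of binding.

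Tspan8 (ENSMUSG00000034127, chr10:115816832-115849893 on GRCm38) fell with the transgene after tamoxifen and rose without it. In females without the transgene, Tspan8 measured 70.4, 78.1 and 67.2 CPM after vehicle and 83.99, 69.9 and 83.3 CPM after tamoxifen. In females with it, the values were 71.5, 78.6 and 67.5 CPM after vehicle and 48.4, 51.4 and 53.6 CPM after tamoxifen. All 3 transgene females on tamoxifen lay below every other female library, and the 3 remaining female groups overlapped. In males without the transgene, Tspan8 measured 53.4, 51.3 and 51.4 CPM after vehicle and 73.5, 83.7 and 91.7 CPM after tamoxifen. In males with it, the values were 65.6, 53.8 and 66.9 CPM after vehicle and 43.95, 56.1 and 59.99 CPM after tamoxifen. In males the treated animals without the transgene lay above all others, and the transgene groups overlapped. The tamoxifen response was -0.36 ± 0.08 with the transgene and 0.41 ± 0.08 without it, and each passed the test (adjusted p = 0.0109 and 0.00443). The combined contrast was -0.77 ± 0.11 (95% interval -0.998 to -0.54, adjusted p = 0.0105), with -0.64 in females and -0.89 in males. It stayed past the threshold in 32 of 32 alternative settings, at -0.81 to -0.70. Tspan8 shares exon sequence with 4930422I22Rik, and because the strand setting of the counting is not known from the labels, reads in the shared part cannot be assigned.

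Sgk1 (ENSMUSG00000019970, chr10:21882184-21999903) rose on tamoxifen without the transgene. In females without the transgene, Sgk1 measured 112, 81.6 and 97.6 CPM after vehicle and 197, 139.7 and 146 CPM after tamoxifen. In females with it, the values were 241, 279.8 and 209 CPM after vehicle and 170.3, 228 and 219 CPM after tamoxifen. Females on vehicle that lacked the transgene lay below all other female libraries. In males without the transgene, Sgk1 measured 119, 134 and 127 CPM after vehicle and 173, 178 and 207 CPM after tamoxifen. In males with it, the values were 287, 237 and 254 CPM after vehicle and 203, 191 and 229.96 CPM after tamoxifen. The lowest libraries of both sexes were those without the transgene on vehicle, and in each sex they did not overlap the transgene animals on vehicle. After tamoxifen the genotypes overlapped in both sexes. The response was -0.28 ± 0.10 with the transgene and 0.64 ± 0.10 without it (adjusted p = 0.143 and 7.4e-04), and the combined contrast was -0.92 ± 0.14 (95% interval -1.22 to -0.62, adjusted p = 0.0144), with -0.97 in females and -0.87 in males. The contrast for Sgk1 thus held a genotype gap that was present under vehicle: the log2 ratio of the transgene mean to the no-transgene mean in males was 1.03 under vehicle and 0.16 under tamoxifen. In females it was 1.33 and 0.36, but there the genotypes lie in different count tables, so table and genotype cannot be told apart. Sgk1 lost its call in 2 of 32 alternatives, without the third female vehicle library lacking the transgene or without the third male tamoxifen library lacking it, where the adjusted p reached at most 0.0518. Its values over the 32 were -0.97 to -0.82.

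**Figure D1:**
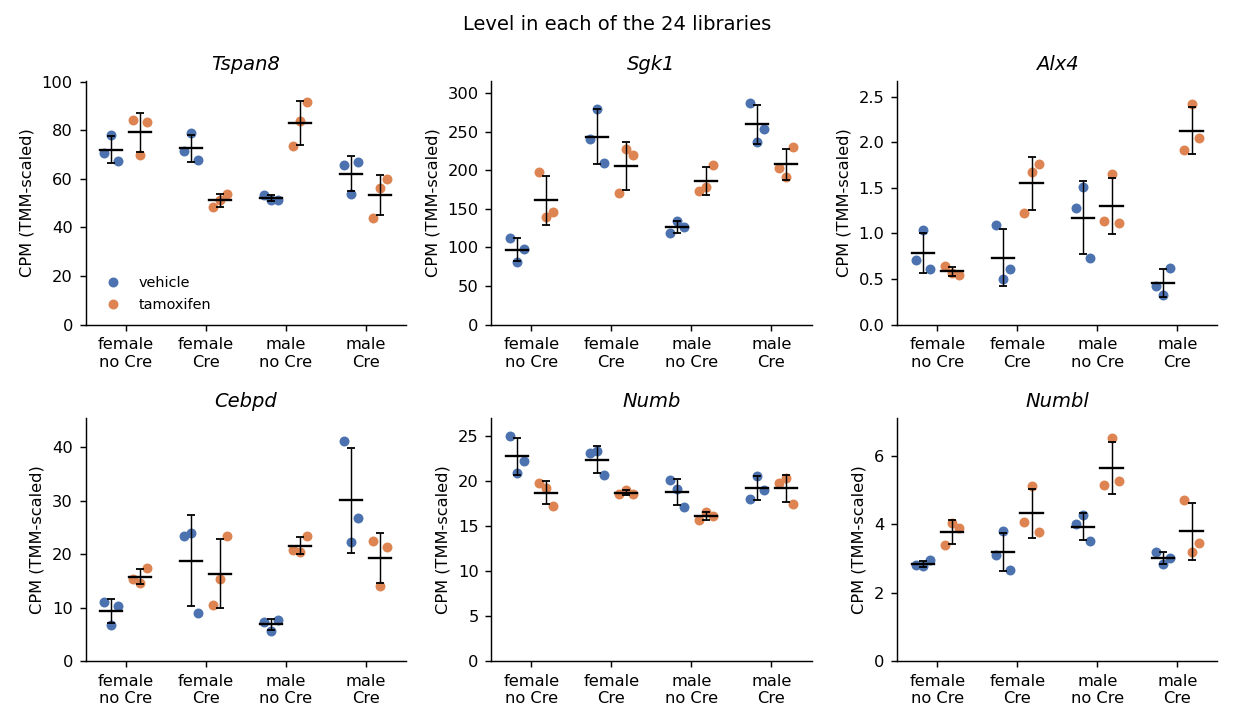
Level in CPM (counts scaled to library size with TMM factors) of 6 genes in each of the 24 libraries, by sex, transgene and treatment; points are libraries, bars the mean and SD of 3. Tspan8 separates the treated animals by genotype, Sgk1 separates the vehicle animals by genotype, and Numb and Numbl show no gap of that kind in females. In males Numbl was lower with the transgene under both treatments, and Numb was higher with it on tamoxifen, with no overlap.

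The floxed genes did not pass the test in the contrast. Counts were summed over whole genes, and which exons are removed is not given in the labels, so these values do not measure the deletion. In females without the transgene, Numb measured 25.1, 20.9 and 22.3 CPM after vehicle and 19.8, 19.3 and 17.3 CPM after tamoxifen. In females with it, the values were 23.2, 23.3 and 20.7 CPM after vehicle and 18.6, 19.03 and 18.6 CPM after tamoxifen. In females both genotypes had lower Numb values on tamoxifen, with no overlap between treatments. In males without the transgene, Numb measured 20.1, 19.1 and 17.2 CPM after vehicle and 15.7, 16.5 and 16.1 CPM after tamoxifen. In males with it, the values were 18.1, 20.6 and 19.1 CPM after vehicle and 19.8, 20.4 and 17.5 CPM after tamoxifen. In males the treatments did not overlap without the transgene and overlapped with it. On tamoxifen, males with the transgene lay above those without it, with no overlap, where 26.6% of all genes tested did not overlap. The Numb response was -0.13 ± 0.06 with the transgene and -0.25 ± 0.06 without it, of which only the second passed (adjusted p = 0.0263; 0.306 with the transgene), and the contrast was 0.12 ± 0.09 (adjusted p = 0.77998). Numb (chr12:83794034-83921934) shares exon sequence with a predicted gene.

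Numbl (chr7:27258433-27282144), the paralogue of Numb, was 3.11, 3.79 and 2.67 CPM in transgene females on vehicle and 4.06, 5.12 and 3.76 CPM on tamoxifen. Without the transgene, females stood at 2.81, 2.77 and 2.94 CPM and 3.39, 4.04 and 3.89 CPM. Transgene males stood at 3.19, 2.83 and 3.02 CPM and 4.72, 3.18 and 3.46 CPM, and males without it at 3.998, 4.28 and 3.49 CPM and 5.15, 6.505 and 5.25 CPM. All 4 group means were higher on tamoxifen. Males with the transgene lay below those without it on vehicle and on tamoxifen, with no overlap. Of all genes tested, 22% on vehicle and 26.6% on tamoxifen did not overlap between the male genotypes. The response was 0.38 ± 0.12 with the transgene and 0.46 ± 0.12 without it, again past the threshold only without the transgene (adjusted p = 0.0315; 0.0903 with it), and the contrast was -0.08 ± 0.17 (95% interval -0.43 to 0.27).

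Far more genes passed in each of the tamoxifen responses that enter the contrast than in the contrast itself. The contrast is the difference of these responses and carries the error of both. Its fewer calls therefore do not show that the responses were alike. Averaged over the sexes, 552 genes changed with the transgene (3.31% of those tested; 235 or 1.41% higher and 317 or 1.9% lower) and 575 without it (3.45%; 294 or 1.76% higher and 281 or 1.69% lower). These lists share no library. Of the 552, 513 (92.9%) had the same sign without the transgene and 187 (33.9%) were also called there, 185 of them in the same direction. Of the 575, 521 (90.6%) had the same sign with the transgene. Over all genes 61.2% had the same sign in both responses, with a Pearson r of 0.293 across genes, which are not independent replicates. By sex the calls were 360 in transgene females (2.16%), 4 in females without the transgene (0.024%), 236 in transgene males (1.42%) and 848 in males without it (5.09%). Whether the responses without the transgene differ between the sexes was not tested.

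A list of 30 genes that an earlier analysis had found changed by tamoxifen in these same libraries was used to show single genes, and its direction is therefore not independent evidence. With the transgene 12 of them rose and 7 fell, without it 13 rose and 8 fell, and in the combined contrast 0 of 30 passed, with a median of -0.03. Flrt1, a leucine-rich membrane protein of cell adhesion, rose by 6.14 with the transgene and by 5.61 without it, and its contrast was 0.53 ± 0.52. Dkk3, a secreted glycoprotein, fell in both, with -2.82 and -2.83, and Amd1, which makes the decarboxylated S-adenosylmethionine used in polyamine synthesis, fell with -1.21 and -1.26. Car3, the carbonic anhydrase of muscle and fat, rose by 1.09 and 1.14. These 4 genes were chosen after their values were seen, and they do not stand for the list. In the contrast 14 of the 30 were positive and 16 negative, from -1.97 for Eno1b, a gene of the enolase family, to 1.80 for Alx4. At an unadjusted p under 0.05 there were 8 of 30, against 8.01% of all genes. The 30 were picked by their change in these same libraries, so nothing is read from that count. The means also cover opposite signs by sex: the contrast of Flrt1 was 1.73 in females and -0.66 in males, that of Dkk3 0.83 and -0.80, and that of Amd1 -0.51 and 0.62.

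**Figure D2:**
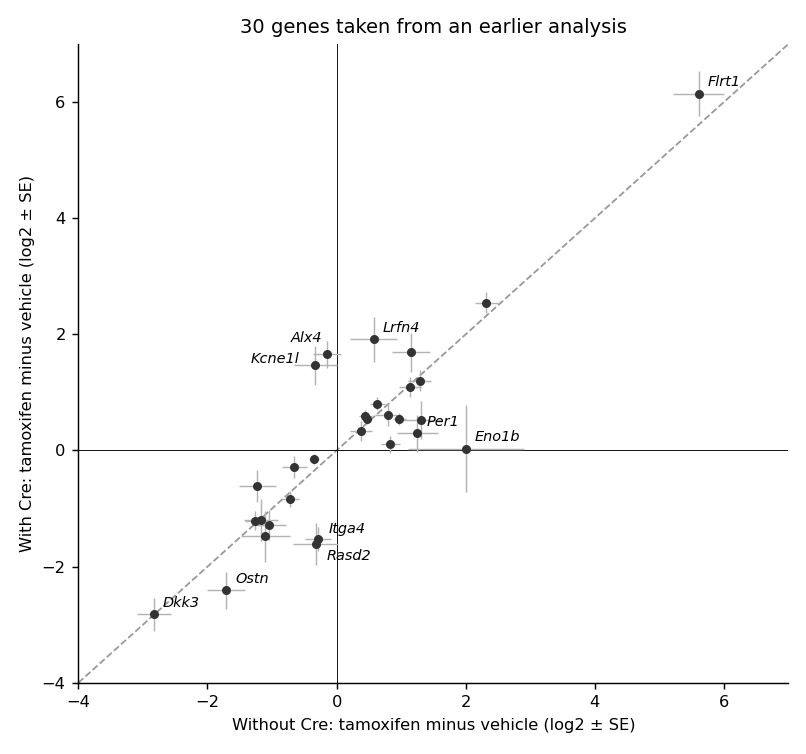
Tamoxifen response (log2 ± SE, mean of both sexes) without the transgene on the x axis and with it on the y axis, for the 30 genes; the dashed line marks equal responses. Flrt1 and Dkk3 lie near the line, while Alx4, Kcne1l, Itga4 and Rasd2 lie near 0 without the transgene.

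Below the threshold, the ranking by p holds 22 further genes that were named with Tspan8 and Sgk1 to make 24. They were chosen for their small p in this contrast, and their adjusted p-values run from 0.0596 to 0.318, so none of them is a call. Of the 24, 13 had positive and 11 negative values, and 11 overlap an exon of another gene. In 19 of 24 the responses with and without the transgene had opposite signs, where 61.2% of all genes had the same sign. The response passed the test with the transgene in 10 of the 24 and without it in 15, where 3.31% and 3.45% of all genes did. The response without the transgene was the larger in 15, including 9 of the 11 negative genes, and that with it in 9, including 7 of the 13 positive genes. Among males, whose genotypes lie in 1 table, the genotypes did not overlap under vehicle for 15 of the 24 and did not overlap under tamoxifen for 13, where 22% and 26.6% of all genes tested did not. The responses and these levels are parts of the contrast by which the 24 were ranked, so nothing is read from any of these counts. The gap of the male means was larger under vehicle for 11.

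**Figure D3:**
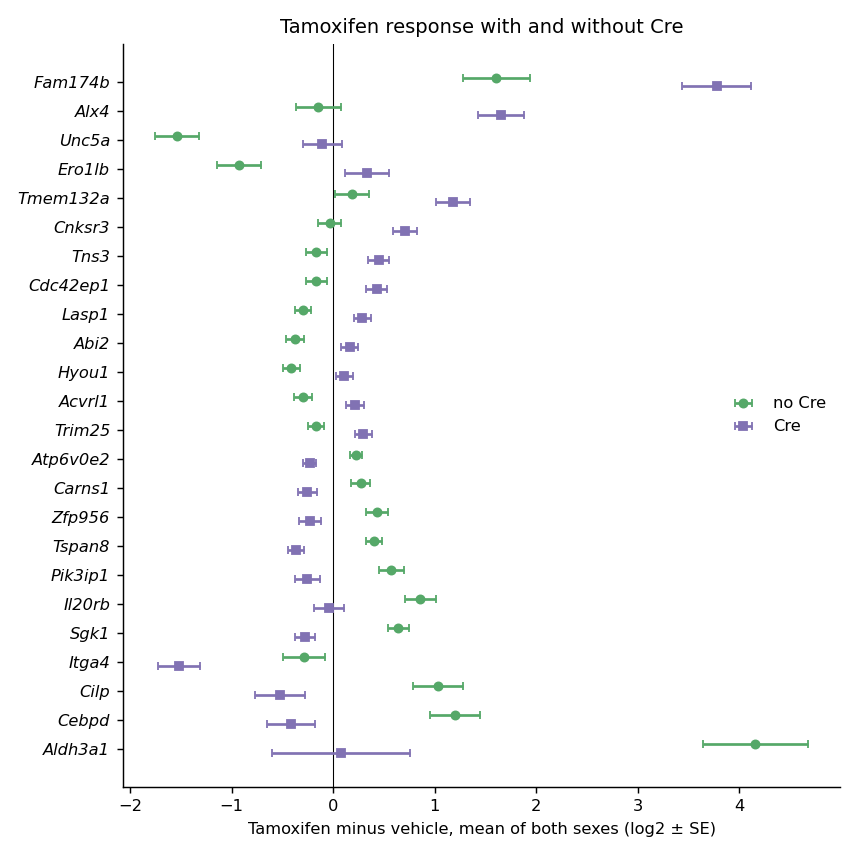
Tamoxifen response (log2 ± SE, mean of both sexes) of the 24 genes with the smallest p in the combined contrast, with the transgene (squares) and without it (circles), ordered by the contrast. Cebpd, Cilp and Aldh3a1 moved without the transgene, and Alx4, Tmem132a and Itga4 moved with it.

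The tamoxifen response of Alx4, Tmem132a, Cnksr3 and Itga4 passed the test with the transgene and not without it. Alx4 (chr2:93642384-93681339), a homeobox transcription factor of limb and skull development, was the nearest to the threshold. In females without the transgene, Alx4 measured 0.708, 1.04 and 0.614 CPM after vehicle and 0.642, 0.563 and 0.548 CPM after tamoxifen. In females with it, the values were 1.09, 0.503 and 0.606 CPM after vehicle and 1.22, 1.68 and 1.76 CPM after tamoxifen. Among females, the treated transgene animals were the highest. In males without the transgene, Alx4 measured 1.28, 1.51 and 0.736 CPM after vehicle and 1.13, 1.65 and 1.12 CPM after tamoxifen. In males with it, the values were 0.421, 0.326 and 0.621 CPM after vehicle and 1.92, 2.41 and 2.05 CPM after tamoxifen. The transgene animals on tamoxifen lay above all other libraries of their sex. Its response was 1.65 ± 0.23 with the transgene and -0.15 ± 0.22 without it, and the contrast was 1.80 ± 0.32 (adjusted p = 0.0596; past the threshold in 8 of 31 alternatives). In males the transgene animals on vehicle were also below those without the transgene, with no overlap. At about 1 CPM these levels rest on few counts.

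Tmem132a (chr19:10857822-10869940), a transmembrane protein, behaved likewise in its values. In transgene females it stood at 7.28, 5.24 and 6.48 CPM on vehicle and 11.9, 15.1 and 10.8 CPM on tamoxifen, and in transgene males at 2.25, 3.05 and 1.28 CPM and 5.96, 5.12 and 5.92 CPM. Without the transgene the female treatments spanned 5.94, 5.66 and 7.96 CPM and 6.89, 8.04 and 6.26 CPM, and overlapped. The contrast was 0.99 ± 0.24 (adjusted p = 0.275). Cnksr3 (chr10:7119063-7212237), a scaffold of the connector enhancer of KSR family, had responses of 0.71 ± 0.12 with the transgene and -0.04 ± 0.11 without it. In each sex its 3 treated transgene libraries lay above the 3 on vehicle, and without the transgene the treatments overlapped. Among males on vehicle, the transgene animals lay below those without it, with no overlap. The log2 ratio of the male transgene mean to the no-transgene mean was -0.58 under vehicle and 0.24 under tamoxifen. The combined contrast was 0.74 ± 0.16 (adjusted p = 0.275).

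Itga4 (chr2:79255426-79333123), the integrin alpha 4 chain, went the other way. It stood at 14.4, 14.5 and 10.3 CPM in transgene females on vehicle and 3.32, 4.02 and 3.101 CPM on tamoxifen. Transgene males stood at 9.97, 9.903 and 15.1 CPM and 4.47, 7.54 and 4.06 CPM. In neither sex did the treatments overlap with the transgene. Females without it stood at 10.95, 7.62 and 8.32 CPM and 3.97, 8.41 and 3.56 CPM, which overlap, and males at 8.795, 7.299 and 6.81 CPM and 8.14, 7.18 and 10.6 CPM, which overlap as well. The response was -1.52 ± 0.21 with the transgene and -0.29 ± 0.20 without it (adjusted p = 2.9e-04 and 0.526), and the contrast was -1.23 ± 0.29 (adjusted p = 0.277). On vehicle the transgene males lay above the males without the transgene for Itga4, with no overlap, and on tamoxifen the genotypes overlapped. The log2 ratio of the male transgene mean to the no-transgene mean was 0.61 under vehicle and -0.69 under tamoxifen. Both Tmem132a and Itga4 share exon sequence with a neighbouring gene, Slc15a3 and Cerkl.

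Fam174b (chr7:73740302-73776919), which encodes a membrane protein, rose in both genotypes, and more with the transgene by its means. Transgene females went from 3.59, 1.54 and 1.15 CPM to 35.1, 34.1 and 14.2 CPM, and transgene males from 0.912, 0.653 and 0.538 CPM to 10.9, 3.98 and 14.8 CPM. Females without it went from 1.91, 1.76 and 1.203 CPM to 4.47, 4.45 and 3.84 CPM, and males from 1.12, 1.26 and 1.701 CPM to 5.43, 4.44 and 4.53 CPM. No treated library overlapped a vehicle library of its own sex and genotype, but 1 treated transgene male lay below the treated males without it. On vehicle the transgene males lay below the males without it, with no overlap. The log2 ratio of the male transgene mean to the no-transgene mean was -0.96 under vehicle and 1.05 under tamoxifen. The responses were 3.77 ± 0.34 with the transgene and 1.61 ± 0.33 without it, and the contrast was 2.17 ± 0.48 (adjusted p = 0.275). It passed without the second male tamoxifen library with the transgene, and by DESeq2.

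Cebpd, Aldh3a1, Cilp, Pik3ip1 and Hyou1 passed the test in the response without the transgene and not in that with it. Cebpd (chr16:15887286-15891031), a transcription factor induced by glucocorticoids and inflammation, was 11.1, 6.75 and 10.3 CPM in females without the transgene on vehicle and 15.4, 14.6 and 17.4 CPM on tamoxifen, and 7.28, 5.68 and 7.77 and 20.7, 20.5 and 23.4 CPM in such males. These treatments did not overlap in either sex. Transgene females spread from 23.5, 23.9 and 9.06 CPM on vehicle to 10.5, 15.4 and 23.3 CPM on tamoxifen, and transgene males from 41.1, 22.3 and 26.8 CPM to 22.5, 14.02 and 21.4 CPM, with overlap in both. As with Sgk1, the vehicle males differed by genotype with no overlap. The response was -0.42 ± 0.24 with the transgene and 1.20 ± 0.25 without it and the contrast -1.62 ± 0.34 (adjusted p = 0.275).

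Aldh3a1 (chr11:61207537-61218421), an aldehyde dehydrogenase, stayed at or below 0.351 CPM in all 12 transgene libraries. Males without the transgene stood at 0.1599, 0.105 and 0.138 CPM on vehicle and 3.93, 5.75 and 8.204 CPM on tamoxifen, and females at 0.272, 0.308 and 0.154 CPM and 4.35, 0.375 and 0.723 CPM. The treated males were all high, and 1 of the 3 treated females was. The levels with the transgene and on vehicle rest on few counts, so the size of the contrast is uncertain. The contrast was -4.08 ± 0.94 (adjusted p = 0.275). Cilp (chr9:65265180-65280605), a protein of the cartilage and connective tissue matrix, responded with -0.52 ± 0.25 with the transgene and 1.03 ± 0.25 without it, and Pik3ip1 (chr11:3330401-3342971), an inhibitor of phosphoinositide 3-kinase, with -0.25 ± 0.12 with the transgene and 0.57 ± 0.12 without it. Hyou1 (chr9:44379490-44392369), a chaperone of the endoplasmic reticulum, fell without the transgene (-0.41 ± 0.08, adjusted p = 0.00652) and measured 0.11 ± 0.08 with it. Atp6v0e2 (chr6:48537615-48541801), a subunit of the vacuolar proton pump, fell with the transgene (-0.23 ± 0.06) and rose without it (0.23 ± 0.06), each past the threshold, and its contrast was -0.46 ± 0.09 (adjusted p = 0.12004). Lasp1 (chr11:97799000-97838764), an actin-binding protein, had a contrast of 0.58 ± 0.11 (adjusted p = 0.138).

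The remaining genes of the 24 are given by their combined contrast on the log2 scale. Those with positive values were Unc5a, a netrin receptor, at 1.43, Ero1lb, an oxidase of the endoplasmic reticulum, at 1.26, Tns3, a tensin of focal adhesions, at 0.61 and Cdc42ep1, an effector of Cdc42, at 0.60. Further such genes were Abi2, an Abl interactor, at 0.54, Acvrl1, a receptor of the TGF-beta family in endothelium, at 0.51 and Trim25, a ubiquitin ligase of antiviral signalling, at 0.46. Those with negative values were Il20rb, a cytokine receptor chain, at -0.90, Zfp956, a zinc finger protein, at -0.66 and Carns1, carnosine synthase, at -0.53.

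The contrasts in females and in males share no library, so one shows how far the other recurs. Across all 16670 genes their Pearson r was 0.0152 and Spearman's rho 0.0087, and 49.4% of genes had the same sign. Among the 3528 genes whose mean log2 CPM was 5 or more, where counting error is smallest, r was -0.0421. Of the 100 genes of smallest p in females, 42 had the same sign in males, and of the 100 of smallest p in males 51 had the same sign in females. With 500 genes the numbers were 236 and 245. There were 135 genes at an unadjusted p under 0.05 in both, of which 60 had the same sign (28 higher and 32 lower) and 75 the opposite sign. These are descriptions across genes, which are not independent replicates.

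**Figure D4:**
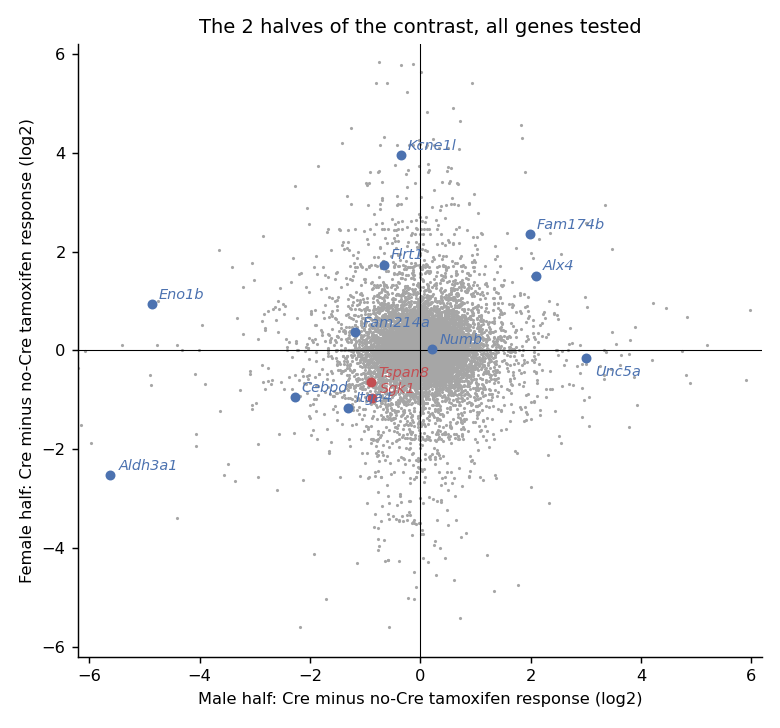
Each gene's contrast (response with the transgene minus response without it, log2) in males on the x axis and in females on the y axis, for all genes tested, with 11 genes outside the range drawn. The cloud has no slope (r = 0.0152); Tspan8 and Sgk1 (red) lie below 0 on both axes, and Unc5a, Kcne1l and Eno1b are far from 0 on 1 axis only.

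By sex, 1 gene passed in females (0.006% of those tested, 987 or 5.92% at an unadjusted p under 0.05) and 2 in males (0.012%, with 1607 or 9.64% at an unadjusted p under 0.05). The female gene was 2310015K22Rik (chr1:80225044-80228792), a clone-named gene given here after its values were seen, since it falls outside the naming rule. In females without the transgene it stood at 6.95, 5.49 and 5.35 CPM on vehicle and 9.78, 11.3 and 11.9 CPM on tamoxifen. With the transgene it stood at 5.87, 5.88 and 5.12 CPM and 2.82, 2.95 and 4.03 CPM. In neither genotype did the treatments overlap, and they went in opposite directions. The contrast was -1.67 ± 0.27 in females (adjusted p = 0.0437) and 0.07 ± 0.27 in males, and it held in 13 of 33 alternatives.

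In males the contrast was positive for Unc5a (chr13:54949411-55006018), a receptor of netrin in axon guidance, which shares exon sequence with Hk3. Males without the transgene stood at 8.08, 8.81 and 21.2 CPM on vehicle and 1.499, 2.18 and 1.28 CPM on tamoxifen. With it they stood at 22.003, 19.3 and 21.8 CPM and 22.4, 23.9 and 19.998 CPM. The treated males without the transgene lay below every other male library, and 1 of the 3 on vehicle lay with the transgene males. The male contrast was 3.003 ± 0.43 (adjusted p = 0.0142), and in females it was -0.15 ± 0.38. It held in 29 of 33 alternatives for males, but not in a fit on the 12 male libraries alone, which called 2 genes and shared none with the fit on 24.

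Fam214a (chr9:74952884-75032468) had a negative contrast in males. In males without the transgene, Fam214a measured 25.6, 29.3 and 26.3 CPM after vehicle and 55.6, 58.2 and 64.7 CPM after tamoxifen. In males with it, the values were 35.2, 38.9 and 32.8 CPM after vehicle and 40.3, 36.2 and 26.9 CPM after tamoxifen. The treatments did not overlap without the transgene and overlapped with it. In females without the transgene, Fam214a measured 34.1, 38.4 and 32.7 CPM after vehicle and 39.7, 42.99 and 45.8 CPM after tamoxifen. In females with it, the values were 43.04, 43.9 and 43.6 CPM after vehicle and 79.2, 57.4 and 68.8 CPM after tamoxifen. In females tamoxifen animals lay above vehicle animals in both genotypes. On vehicle, animals with the transgene lay above those without it in both sexes, with no overlap. The log2 ratio of the transgene mean to the no-transgene mean in males was 0.40 under vehicle and -0.79 under tamoxifen. In females it was 0.31 and 0.68, where table and genotype cannot be told apart. The contrast was -1.18 ± 0.17 in males (adjusted p = 0.0137) and 0.37 ± 0.17 in females (adjusted p = 0.831). Fam214a was also the only gene whose contrast differed between the sexes by the test of that difference, at 1.55 ± 0.25 (adjusted p = 0.0384, 0.006% of genes called, 1343 or 8.06% at an unadjusted p under 0.05), which held in 17 of 32 alternatives. Its combined contrast was -0.41 ± 0.12 (adjusted p = 0.431). Kcne1l (chrX:142304752-142306294), a potassium channel subunit, was 0.353, 0.583 and 0.454 CPM in transgene females on vehicle and 8.36, 4.74 and 2.94 CPM on tamoxifen, with a female contrast of 3.95 ± 0.67 (adjusted p = 0.0577) and a male contrast of -0.36 ± 0.65.

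The size of difference that these libraries could resolve was read from the unadjusted intervals. The median standard error of the combined contrast was 0.194 on the log2 scale, and the median 95% interval reached 0.403 to either side of the estimate, or 1.32-fold. For 11533 genes (69.2%) the whole interval lay inside a 2-fold difference in either direction. For 752 genes (4.51%) the estimate was at least 2-fold. The median standard error was 0.264 in females and 0.271 in males.

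Gene lists for 30 pathways and 10 cell types held 772 genes, of which 770 were in the tables and 753 passed the filter on low counts. Of these 753 only Sgk1 passed in the combined contrast, where 2 of 16670 genes tested (0.012%) did. With so few calls among all genes, 0 calls in a list is no result about its members. The median over all genes tested was -0.0044, with 8165 positive and 8505 negative. Each list below is read against those values, and no list was tested as a set. The range after a median is that of the same median as each of the 24 libraries was left out in turn.

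Notch pathway genes, the ligands, receptors, proteases and targets of the route that Numb is known to restrain, had 0 of 30 calls and a median of 0.05 (0.01 to 0.09). For 29 of 30 the interval lay inside a 2-fold difference, and values ran from -0.26 for the ligand Dll4 to 0.46 for the ligand Dll1, which was -0.14 in females and 1.07 in males. The receptor Notch1 stood at 0.21 ± 0.14, the target Hes1 at -0.22 ± 0.35 (-0.62 in females and 0.18 in males), the ubiquitin ligase Dtx2 at 0.29 ± 0.11 and the sheddase Adam17 at 0.30 ± 0.14. Numb's partners and other endocytic adaptors had 0 of 32 calls, a median of 0.01 (-0.0024 to 0.05), and 31 intervals inside 2-fold. Its lowest value was that of Dnm3, a dynamin, at -0.82 ± 0.26, and Itsn1, the scaffold intersectin, stood at -0.36 ± 0.12. Septins, filament-forming GTP-binding proteins, had 0 of 11 calls and a median of 0.21 (0.15 to 0.26), with Sept7 at 0.15 ± 0.08 and Sept3 at 1.14 ± 0.39.

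The 19 glucocorticoid-responsive genes held the 1 call, Sgk1, which was lower. Their median was -0.24 (-0.41 to -0.14), with 14 of 19 negative, and Cebpd had the lowest value. In the response without the transgene 3 of the 19 rose, where 1.76% of all genes did, and the median was 0.28. With it 1 of the 19 rose, where 1.41% of all genes did, and the median was 0.14. These responses are parts of the contrast that ranked Sgk1 and Cebpd. The lists were also chosen with earlier results of these data known, so nothing is read from these counts. The members did not all have negative contrasts: Zbtb16, a zinc finger factor, was highest at 0.90. Core clock genes had 0 of 17 calls, a median of -0.22 (-0.33 to -0.14) and 13 negative values. Of the 17, 8 had the same sign in both sexes. The repressor Per1 stood at -0.96 ± 0.45, Bhlhe40 at -0.88 ± 0.22 and the activator Arntl at 0.40 ± 0.34. Arntl had opposite values by sex, -0.80 in females and 1.61 in males, a difference of -2.41 ± 0.68 that did not pass the test (adjusted p = 0.357). Without the transgene 3 of the 17 core clock genes rose and 2 fell, against 1.76% and 1.69% of all genes, and with it 1 rose and 1 fell, against 1.41% and 1.9%. This list too was chosen with earlier results known, so nothing is read from its counts.

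Muscle genes had no call. Slow fibre genes stood at a median of 0.73 in females and -0.95 in males, and 2 of 16 had the same sign in both. Single libraries moved these medians: the female value was 1.39 without the third transgene vehicle library, 0.39 without the second and 0.40 without the first tamoxifen library lacking the transgene. The male value was -2.07 and -0.42 without the first or the third transgene tamoxifen library, and -0.09 without the second transgene vehicle library. Myh7, the slow myosin heavy chain that marks these fibres, varied within groups: transgene males on vehicle had 415, 919 and 63.1 CPM and those on tamoxifen 755, 218 and 10.1 CPM. With log2 Myh7 as a covariate the list medians became -0.13 in females and 0.04 in males. Myh7 defines this list, so that fit takes out what its members share with Myh7. Nothing is read from the smaller medians. Fast fibre genes had a median of -0.17 (-0.26 to -0.08) with 13 of 16 negative, and sarcomere and costamere genes -0.10 (-0.13 to -0.03). The male fast fibre median was -0.10, and 0.10 without the third transgene vehicle or the first transgene tamoxifen library. The 40 nuclear genes of oxidative phosphorylation were the most narrowly bounded list: all 40 intervals lay inside a 2-fold difference, values ran from -0.06 to 0.15, and the median was 0.05 (-0.0013 to 0.09). Genes of glycolysis and glycogen had a median of -0.16 (-0.19 to -0.11), atrophy and FoxO genes -0.14 (-0.19 to -0.07), and genes of the neuromuscular junction 0.11 (0.04 to 0.16). In males the glycolysis median was -0.09, and 0.04 without the first transgene tamoxifen library.

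Stress and immune lists also had no call in the contrast. Heat shock genes had a median of 0.25 with 24 of 28 positive, split into 0.02 in females and 0.47 in males. Hsp90aa1, the stress-inducible HSP90, stood at 106, 70.4 and 357 CPM in males without the transgene on vehicle, against 53.03, 34.5 and 35.9 CPM on tamoxifen, so that 1 vehicle library was far above the rest. Without that library the male median of the list was 0.28 and the combined median 0.15. Genes of the unfolded protein response had a median of 0.19 (0.13 to 0.24) with 20 of 24 positive, and the chaperone Hspa5 stood at 0.44 ± 0.13. Interferon response genes had opposite medians by sex, -0.50 in females and 0.88 in males, with 3 of 33 of the same sign. The female median was -0.16 without the first transgene vehicle library, and the male median 0.51 without the first vehicle library lacking the transgene. The GTPase Iigp1 stood at -0.45 ± 0.55 in females and 1.68 ± 0.58 in males. Immediate early genes had medians of -0.49 and 0.21, and single libraries left out gave -0.66 to -0.07 and -0.25 to 0.51. The male value was -0.25 without the vehicle library high in Hsp90aa1, and the female value -0.07 without the third tamoxifen library lacking the transgene.

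Collagens and other matrix genes were positive in 33 of 34 with 0 calls, and the combined median was 0.35. Without the second female tamoxifen library with the transgene it was 0.19. By sex it was 0.02 in females (-0.26 to 0.23) and 0.61 in males (0.50 to 0.78). Postn, a matrix protein of remodelling tissue, stood at 0.80 ± 0.32 and Col1a1 at 0.86 ± 0.38. In bulk muscle, a difference in the number of cells of a type and one in RNA per cell cannot be told apart. Markers of fibroblasts and fibro-adipogenic progenitors had 0 calls, with 12 of 13 positive and a median of 0.21. That median was 0.12 without the same female library and 0.39 without the second transgene vehicle female. Their summed level in males ran from 429 to 652 CPM on vehicle and 485 to 606 CPM on tamoxifen without the transgene, and from 465 to 648 CPM and 692 to 702 CPM with it. In females these ranges were 505 to 523, 519 to 548, 424 to 723 and 481 to 782 CPM in the same order. Some collagens are in both lists. The part of these cells in the matrix values was not tested.

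The other cell type lists had 0 calls as well. Tendon and myotendinous junction genes had a median of 0.55 (0.34 to 1.056; 1.04 in males) with 9 of 10 positive, and red blood cell genes 0.75 (0.51 to 1.04) with 6 of 6 positive. The tendon median was 0.34 without the second and 1.056 without the first female tamoxifen library lacking the transgene, and 0.90 without the second transgene vehicle female. Schwann cell and nerve genes had 0.28 with 9 of 9 positive, led by Sox10 at 0.95 ± 0.36. Leaving out 1 library moved the Schwann and nerve median over 1.5 times in 8 of 24 cases, from 0.07 without the second female vehicle library lacking the transgene to 0.58 without the third transgene vehicle male. Adipocyte markers had a median of 0.0044, which 1 library decided: it was 0.89 without the second male tamoxifen library lacking the transgene (1.88 in males, against -0.04 with it), and -0.07 to 0.22 without any one of the others. Endothelial and satellite cell markers had medians of 0.11 (0.02 to 0.20) and 0.08 (0.01 to 0.13), the lowest endothelial value being that without the first vehicle male lacking the transgene. Skeletal muscle fibre markers had -0.11 (-0.14 to -0.07). For tendon and red blood cell genes 1 of 10 and 0 of 6 intervals lay inside a 2-fold difference, so these values are wide.

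**Figure D5:**
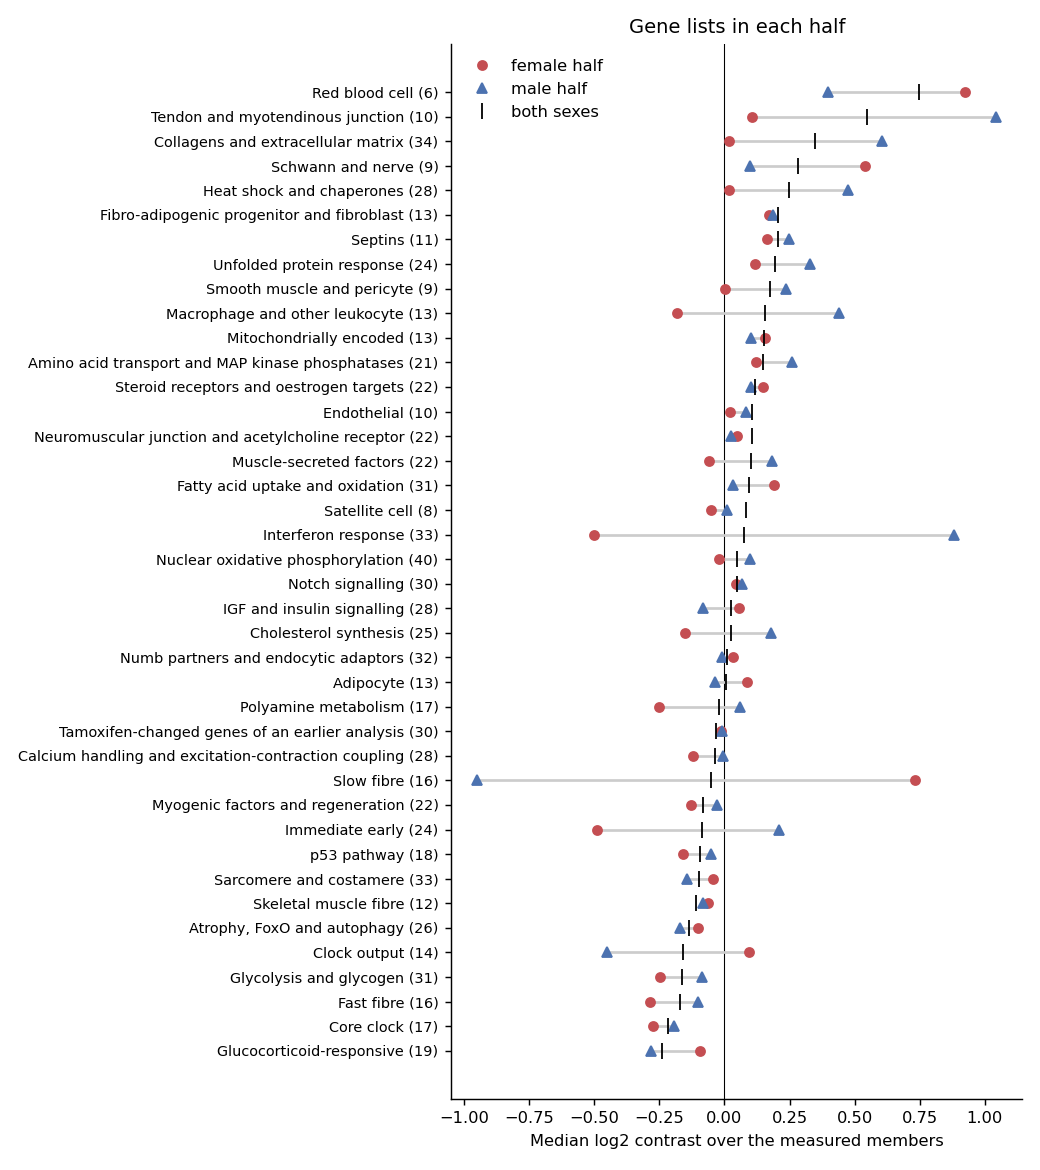
Median log2 contrast over the measured members of each of the 40 gene lists, in females (circles), males (triangles) and combined (bars); the number of members is in brackets. Slow fibre and interferon response lists lie on opposite sides of 0 in the 2 sexes, and Notch signalling and Numb partners lie near 0 in both.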

How the data were processed

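The authors deposited read counts, unnormalized whole numbers for each Ensembl gene ID, in 3 tables: 1 of females with the transgene, 1 of females without it and 1 of all males. Per the labels, RNA was taken from frozen gastrocnemius. The submitters' processing notes name STAR, featureCounts, limma, GRCm38 and mm10, without versions or roles. For the library kit and strand setting, the sources used here give nothing. GENCODE on GRCm38 gave symbols for 54723 of the 54752 IDs, and coordinates.

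All 24 libraries were fitted with 1 mean per group in edgeR 4.0.16 (R 4.3.3): TMM scaling, filterByExpr (minimum count 10, minimum total 15), robust dispersion, and the quasi-likelihood test, adjusted over 16670 genes by Benjamini-Hochberg. The standard error is the absolute log2 value divided by the square root of F. Where F is near 0 this is unstable: the widest interval among mitochondrially encoded genes reached 1822 to either side. Such a gene counts as not inside a 2-fold difference. CPM used TMM-scaled library sizes. The procedure was tested on simulated data. Alternatives, including limma-voom (limma 3.58.1) and DESeq2 1.42.0, are given in the closing section.

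Members, gene lists and naming rule were chosen with earlier results of these data known. The rule named Numb and Numbl, called genes whose mean log2 CPM was 0 or more and with a symbol that is no clone or model name, the smallest p-values up to 24 genes in the combined contrast, the 3 smallest p-values in each direction for the difference between sexes, and from each list its called members or its 1 or 2 of smallest p. List-defining genes and genes of the tamoxifen list may be named with any value. Extreme members of lists are named as range ends.

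Only the females without the transgene carry replicate numbers shared between treatments. Their same-numbered libraries did not deviate together (correlations of deviations -0.17, -0.035 and -0.072). With 3 libraries a group this cannot exclude pairing, and the main fit did not use the numbers.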

Additional observations from a re-analysis of the deposited data

Results flagged for a closer look

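The contrast of Fam214a differed between the sexes, which is why it is listed here: the test of the difference itself gave 1.55 on the log2 scale (females minus males, 0.37 against -1.18, adjusted p = 0.0384 by edgeR's quasi-likelihood test, n = 3 libraries in each of 8 groups, 1 of 16670 genes past the threshold). In males without the transgene all 3 tamoxifen libraries lay above all 3 vehicle libraries, and in transgene males the treatments overlapped. In females tamoxifen libraries lay above vehicle libraries in both genotypes. On vehicle, libraries with the transgene lay above those without it in both sexes, with no overlap, so the contrasts also hold a gap present under vehicle. The difference held in 17 of 32 alternatives, over which its adjusted p ran from 2.2e-05 to 0.124. It rests on the titles of the 3 transgene vehicle males, whose treatment field says tamoxifen.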

How the results depend on the processing

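Numbers of genes past the threshold are given for the combined contrast, females, males and the difference between the sexes, in that order, where 2, 1, 2 and 1 genes were called. RLE size factors gave 2, 0, 2 and 1. No filter on low counts (33803 genes) gave 6, 2, 16 and 4, and a mean log2 CPM of at least 1 (11031 genes) gave 2, 0, 9 and 0. A Myh7 covariate gave 3, 2, 27 and 2. limma-voom gave 2, 1, 1 and 0, and with library quality weights, chosen after seeing the data, 3, 1, 11 and 16. DESeq2 gave 19, 5, 83 and 35. Fits on 1 sex gave 0 genes in females (1145 at an unadjusted p under 0.05) and 2 in males. Leaving out each library in turn gave 1 to 6, 0 to 3, 0 to 17 and 0 to 4. In the combined contrast the count was 1 without female vehicle library 3 or male tamoxifen library 3 lacking the transgene, 4 without male vehicle library 2 or 3 lacking it, and 6 without male tamoxifen library 2 with it. In males it was 0 without tamoxifen library 3 lacking the transgene, 16 without vehicle library 2 lacking it and 17 without tamoxifen library 2 with it. The cause of these differences was not tested, apart from the number of genes tested, which the filters change. In the combined contrast, Tspan8 was called under each of these settings, and Sgk1 under each except those where a count of 1 is given.

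For the tamoxifen responses with and without the transgene (552 and 575 genes) all alternatives were chosen after seeing the data. Leaving out 1 library gave 351 to 620 and 324 to 678. The count with the transgene was 361 without its female vehicle library 1, 351 without its female tamoxifen library 1 and 360 without its male vehicle library 3. The count without the transgene was 324 without its female vehicle library 1, 344 without its female tamoxifen library 3, 356 without its male vehicle library 1, and 352 and 351 without its male tamoxifen libraries 2 and 3. Quality weights gave 604 and 1124 genes, and DESeq2 824 and 870.

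The replicate block, numbers 1 to 3 of the females without the transgene, gave 2, 1, 3 and 0 genes, and 504 and 501 for the responses. The 1 gene in females was then another gene. The numbers are shared by label, and same-numbered libraries did not deviate together, which does not exclude pairing.

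No alternative run reversed the sign of the combined contrast of Numb, Numbl or the 24 genes of smallest p, of the female value of 2310015K22Rik, or of the male values of Unc5a and Fam214a. Alx4, Aldh3a1 and Ero1lb have no value under the stricter filter, which left them out. With 3 libraries a group, the unadjusted 95% interval reached 1.32-fold to either side at the median gene. This is no size that the adjusted test could call.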
